A study of Mus musculus with 6 samples.

Results

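The fibroblast growth factor (FGF) genes described here are the ligand genes Fgf1, Fgf2, Fgf7, Fgf10 and Fgf18 and the receptor genes Fgfr1, Fgfr2, Fgfr3, Fgfr4 and Fgfrl1. They were taken by gene name and are 10 of the 53801 genes in the deposited count table. RNA came from stromal cells that were sorted as PDPN+ and PDGFRα+, after CD45+ and CD31+ cells had been gated out, from MO5 tumors, which are subcutaneous B16 melanomas carrying ovalbumin. The tumors grew in C57Bl/6 mice that were 8 to 12 weeks old at implantation, and all mice received diphtheria toxin. The DTR group (genotype DTR+, 3 libraries) came from ADAM12-DTR mice, in which a transgene places the diphtheria toxin receptor under the Adam12 promoter, so that the toxin acts on any cell in which that promoter is active. The Ctrl group (genotype DTR-, 3 libraries) came from littermates without the transgene. The comparison asks how FGF transcripts differ in the sorted stroma of tumors from which ADAM12+ cells were to be removed. The labels do not say how many mice stand behind a library, so p-values measure only the spread between these libraries, which may be technical.

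FGF ligands are secreted proteins that bind receptor tyrosine kinases together with heparan sulfate on the cell surface. Active receptors phosphorylate the docking protein FRS2, from which the signal runs through GRB2, SOS and RAS to the MAP kinases, and Sprouty proteins and dual-specificity phosphatases feed back on this route. In skin, mesenchymal cells make ligands such as Fgf7 and Fgf10 that act on neighbouring epithelium, while Fgfrl1 encodes a receptor-like protein that binds FGFs but lacks the kinase domain.

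The libraries held from 22339635 to 34271929 counts on genes. Levels are given as CPM, a gene's counts relative to its library's total over the tested genes after scaling with trimmed-mean (TMM) factors, and 3 counts, taken as the limit that a count of 0 allows, correspond to between 0.0872 and 0.132 CPM on that scale. These limits cover counting error only. Adam12 itself was at 216, 181 and 175 CPM in Ctrl and at 165, 151 and 112 CPM in DTR. It was still detected in every DTR library, and each of these lay below every Ctrl library, as for 8.18% of all genes tested. The log2 fold change was -0.42 ± 0.15 SE (edgeR quasi-likelihood test, unadjusted p = 0.0265, Benjamini-Hochberg adjusted p = 0.602). The 8 fibroblast markers, among them Pdgfra, Pdpn and the collagen genes Col1a1 and Col3a1, summed to between 5157 and 13610 CPM in Ctrl and to between 5564 and 14080 CPM in DTR. The 8 melanoma markers, which the sort should leave out, summed to more in every library, from 17470 to 19910 CPM in Ctrl and from 16390 to 19270 CPM in DTR. The values below are therefore those of sorted samples with a high level of melanoma transcripts, and in such bulk samples fewer cells of a type and less RNA per cell cannot be told apart. Sums for the other marker lists were far lower: 40.2 to 91.7 CPM for 6 immune genes, 11.6 to 78.9 CPM for 5 endothelial genes, 8.998 to 38.7 CPM for 5 mural genes, 4.002 to 10.02 CPM for 6 skeletal muscle genes, 1.45 to 5.43 CPM for 4 adipocyte genes and 0.262 to 1.39 CPM for 5 keratinocyte genes. The myogenic markers Myf5 and Pax7 had 0 counts in all libraries.

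All 10 genes had counts, at very different levels. Fgf1, Fgfr1, Fgfr2 and Fgfrl1 lay between 20.9 and 107 CPM in every library. Fgf7 lay between 10.2 and 20.4 CPM, Fgf2 between 4.10 and 49.5 CPM and Fgf18 between 2.22 and 10.4 CPM. Fgf10 and Fgfr3 did not exceed 1.02 CPM, and Fgfr4, whose product is the main FGF receptor of hepatocytes, had at most 10 counts in any library.

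**Figure D1:**
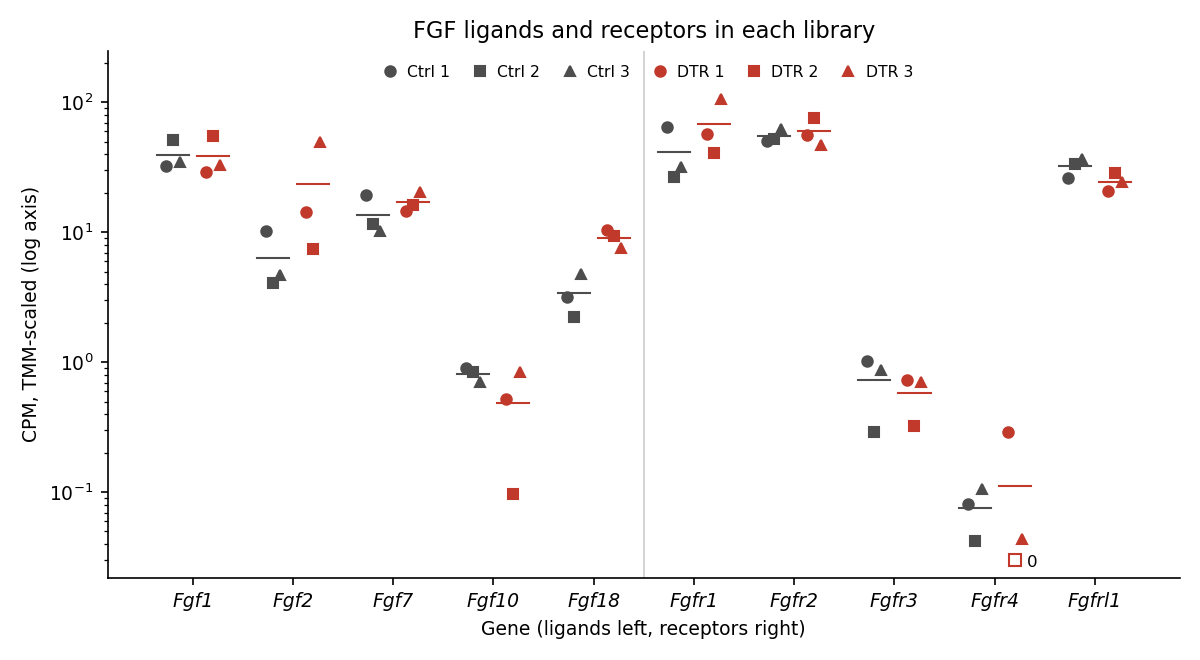
Levels of the 10 FGF genes (x axis, ligands left and receptors right) in each library, as TMM-scaled CPM on a log axis. Each point is a library, horizontal lines are group means (n = 3), and the open symbol marks the DTR library with 0 Fgfr4 counts; Fgf18 is the gene whose 3 DTR points all lie above its 3 Ctrl points.

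Compared between genes, levels need to be set per length, here as CPM per kilobase of a gene's merged exons. On that scale Fgfrl1 was the highest in Ctrl, at 11.7 ± 1.96 (SD, n = 3), followed by Fgf1 at 7.25 ± 1.88, Fgfr2 at 5.33 ± 0.641, Fgf7 at 4.22 ± 1.51, Fgfr1 at 4.18 ± 2.12, Fgf18 at 2.87 ± 1.105, Fgf2 at 0.931 ± 0.494, Fgf10 at 0.177 ± 0.0217, Fgfr3 at 0.102 ± 0.0539 and Fgfr4 at 0.0215 ± 0.00907. From Fgf1 down to Fgf18, each gene's range over the 3 Ctrl libraries overlapped that of the next gene, so the order of those neighbours was not set apart from their spread, while Fgfrl1, Fgf2, Fgf10, Fgfr3 and Fgfr4 each had a range clear of the gene above or below. In DTR the order was Fgfrl1, Fgf18, Fgf1, Fgfr1, Fgfr2, Fgf7, Fgf2, Fgf10, Fgfr3 and Fgfr4, which took Fgf18 from rank 6 to rank 2, at 7.65 ± 1.18 CPM per kilobase. The neighbours in the DTR order had overlapping ranges, with the exception of Fgf2, which lay above Fgf10. The order depends on the length used: per kilobase of the longest coding transcript, Fgfr2 was at rank 2 in Ctrl and rank 1 in DTR, and Fgf18 went from rank 6 to rank 5.

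Counts of DTR and Ctrl were compared over all 15133 genes with enough counts, of which 0 (0%) had an adjusted p under 0.05 by the quasi-likelihood test of edgeR and 1199 (7.92%) had an unadjusted p under 0.05. None of the FGF genes passed the adjusted threshold, out of the 9 that were tested. At an unadjusted p under 0.05 there were 3 of 9, namely Fgf18 and Fgf2, which were higher in DTR, and Fgfrl1, which was lower, and the share of all genes that were higher at that threshold was 3.81%. The count of 3 rested on few libraries, with 1 such gene left without Ctrl 2, without Ctrl 3 or without DTR 3, 2 without DTR 1, 4 without DTR 2 and 5 without Ctrl 1. DESeq2's Wald test called 31 of 20519 genes (0.151%) at an adjusted p under 0.05, and Fgf18 was among them as the only FGF gene of the 10. limma voom called 0 genes. Groups did not overlap in 1 of 9 FGF genes, Fgf18, with DTR above Ctrl, where 6.32% of all genes did so, and in 0 of 9 with DTR below Ctrl, where 8.18% of all genes did so. The median log2 fold change was 0.12 over the 9 FGF genes and -0.0029 over all genes tested. The median of the FGF genes depended on the fit. It was 0.06 without Ctrl 1, -0.03 without DTR 2 and -0.15 with an offset for genomic span, where the median of all genes was 0.0011, -0.016 and -0.0727. In the other fits it was above 0, among them 0.21 without Ctrl 2. It was 0.33 with at least 10 counts in every library, a filter that leaves out Fgf10 and Fgfr3. With 3 libraries a group, the two-sided exact permutation test of log2 levels cannot give a p below 0.1.

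**Figure D2:**
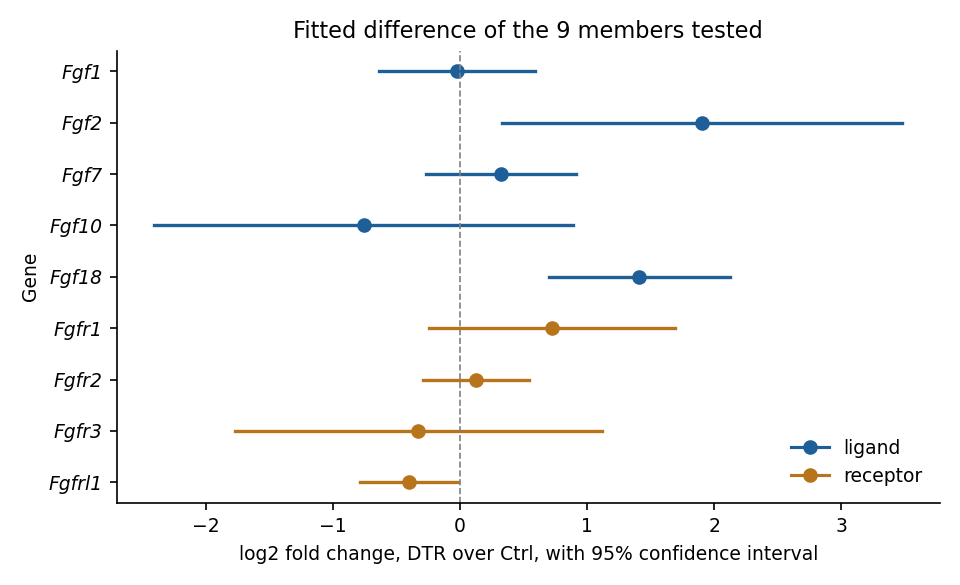
Fitted log2 fold change of DTR over Ctrl (x axis) with its 95% confidence interval for the 9 FGF genes tested (y axis), from edgeR's quasi-likelihood fit on 3 libraries a group. The intervals of Fgf18 (0.70 to 2.12) and Fgf2 (0.33 to 3.48) lie above 0, that of Fgfrl1 (-0.78 to -0.01) lies just below it, and the other intervals include 0.

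Fgf18, a ligand known for its roles in bone, cartilage and lung development and in the hair cycle, was the ligand gene with the clearest difference. Its counts were 78, 53 and 137 in Ctrl and 356, 289 and 172 in DTR, which correspond to 3.19, 2.22 and 4.82 CPM against 10.4, 9.31 and 7.59 CPM. All 3 DTR libraries lay above all 3 Ctrl libraries, with DTR 3 and Ctrl 3 the nearest to each other. Means were 3.41 ± 1.31 CPM in Ctrl and 9.08 ± 1.40 CPM in DTR (SD, n = 3), a fitted 2.66-fold difference (log2 1.41 ± 0.31 SE, 95% confidence interval 0.70 to 2.12). Its unadjusted p, 0.00182, ranked 24th among 15133 genes, and the Benjamini-Hochberg adjusted p was 0.602 by the quasi-likelihood test of edgeR, while the two-sided exact permutation test gave the smallest p the design allows, 0.1. DESeq2's Wald test gave a log2 fold change of 1.42 ± 0.32 SE with an adjusted p of 0.0131. That call depended on single libraries: the DESeq2 adjusted p was 0.0842 without Ctrl 2 and 0.0777 without DTR 2, DESeq2 gave no adjusted p without DTR 1, and it was 0.0494, 0.000212 and 0.0367 without Ctrl 1, Ctrl 3 and DTR 3. The size of the difference moved less, from 1.18 to 1.75 (log2) over the 6 edgeR fits with a library left out.

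Fgf18 (ENSMUSG00000057967) lies on the minus strand at chr11:33117430-33147400 of GRCm38, with no other annotated gene overlapping it, and it shared 0 of its 1136 exonic words of 50 bases with other genes, so that its reads could be assigned without a competing gene. The 250 bases just upstream of its start are shown because this was the FGF gene with the most distinct groups. They come from RefSeq on GRCm38.p6, minus strand, chr11:33147401-33147650, and the capitals mark the only GC box, searched as GGGCGG and its reverse complement CCGCCC.
Fgf18 upstream window: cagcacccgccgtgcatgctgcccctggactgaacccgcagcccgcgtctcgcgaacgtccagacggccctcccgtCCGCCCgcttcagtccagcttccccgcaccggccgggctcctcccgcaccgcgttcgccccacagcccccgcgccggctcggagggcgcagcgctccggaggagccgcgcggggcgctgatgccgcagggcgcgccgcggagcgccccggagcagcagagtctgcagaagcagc
The window had 77.2% G and C and 37 CpG dinucleotides, against medians of 52.4% and 6 over the 32851 gene windows of that length. A GC box stood in 32.7% of all windows, and in 6 of the 8 FGF genes with a window (Fgf2, Fgf10, Fgf18, Fgfr3, Fgfr4 and Fgfrl1). A gene was counted if any of its windows held the letters, so counts of genes and shares of single windows are not like measures. The letters ACGTG and GCGTG, the cores of hypoxia response elements, were searched on both strands and were not in the Fgf18 window. They stood in 16.6% and 28.2% of all windows. Of the 8 FGF genes, 2 had ACGTG (Fgfr4 and Fgfrl1) and 4 had GCGTG (Fgf2, Fgf7, Fgfr3 and Fgfr4). TATAAA, likewise not in the Fgf18 window, stood in 12.4% of all windows and in 0 of the 8 FGF genes.

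The genes whose levels ran most like those of Fgf18 over the 6 libraries were Zc2hc1c, Arntl2 and Itgb6, with root mean square differences of 0.0770, 0.138 and 0.177 between mean-centred log2 levels. Zc2hc1c had at most 22 counts in any library. Arntl2 encodes a circadian transcription factor and Itgb6 the beta chain of an epithelial integrin. Arntl2 was at 1.103, 0.796 and 1.41 CPM in Ctrl and at 3.03, 3.35 and 2.51 CPM in DTR. Itgb6 was at 1.02, 0.670 and 1.13 CPM in Ctrl and at 3.403, 2.93 and 2.73 CPM in DTR. These genes were found by their likeness to Fgf18 on the same libraries, so their differences between groups follow from that choice and are given as a description.

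Fgf2, which encodes basic FGF, a growth factor for fibroblasts and endothelial cells, had the largest fitted difference among the FGF genes, and 1 library carried most of it. Its level was 10.2, 4.10 and 4.68 CPM in Ctrl and 14.3, 7.47 and 49.5 CPM in DTR. DTR 3 stood far above the other libraries, DTR 2 lay below Ctrl 1, and the groups overlapped. The fitted difference was 3.75-fold (log2 1.91 ± 0.68 SE, edgeR quasi-likelihood test, unadjusted p = 0.0235, Benjamini-Hochberg adjusted p = 0.602), and the two-sided exact permutation p was 0.2. The unadjusted p was under 0.05 in 12 of 17 alternatives, those with DESeq2 and a replicate left out not included. It was over 0.05 by limma voom (0.105), with robust moderation (0.0647) and without Ctrl 2, Ctrl 3 or DTR 3 (0.0801, 0.0777 and 0.113 in those edgeR fits). Without DTR 3 the log2 fold change was 0.78 ± 0.44 SE. With the fibroblast marker level as a covariate it was 0.92 ± 0.28 SE (edgeR quasi-likelihood test, unadjusted p = 0.0114).

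Fgf2 lies on the plus strand at chr3:37348346-37410108 of GRCm38 and overlaps antisense genes, among them Nudt6 and Fgf2os, from which counting by strand keeps it apart. It also overlaps Gm43439 on its own strand, with which it shares 2.99% of its 50-base words. Neither Fgf2os, with at most 14 counts, nor Gm43439, with at most 3, had enough counts to be tested. Nudt6 was at 4.002, 3.81 and 3.97 CPM in Ctrl and at 4.13, 2.93 and 5.29 CPM in DTR.

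Fgf1, which encodes acidic FGF, a ligand of all FGF receptors, had the highest mean level per length among the ligands in Ctrl. It was at 32.5, 51.4 and 35.0 CPM in Ctrl and at 29.2, 54.9 and 33.0 CPM in DTR. Ctrl 2 and DTR 2 were the high libraries, and the groups overlapped over most of their range. The log2 fold change was -0.02 ± 0.27 SE with a 95% confidence interval of -0.63 to 0.59 (edgeR quasi-likelihood test, Benjamini-Hochberg adjusted p = 0.985). Its sign changed with the fibroblast covariate (0.18), and no direction is given for it.

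Fgf7, the keratinocyte growth factor made by mesenchymal cells, was at 19.3, 11.6 and 10.2 CPM in Ctrl and at 14.7, 16.3 and 20.4 CPM in DTR. Ctrl 1 lay within the DTR values, and the other Ctrl libraries below them. The log2 fold change was 0.32 ± 0.25 SE (95% confidence interval -0.26 to 0.91, edgeR quasi-likelihood test, Benjamini-Hochberg adjusted p = 0.749), and it was 0.65 without Ctrl 1 and 0.15 without Ctrl 3. Fgf7 lies at chr2:126034658-126091185 on the plus strand of GRCm38.

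Fgf10, its close relative in mesenchyme to epithelium signalling, was near the limit of detection. It had 22, 20 and 20 counts in Ctrl and 18, 3 and 19 in DTR, or 0.898, 0.838 and 0.703 CPM against 0.524, 0.0966 and 0.838 CPM. DTR 2, at 3 counts, stood below all other libraries, and DTR 1 lay below every Ctrl library, while DTR 3 lay within the Ctrl values. The log2 fold change was -0.76 ± 0.71 SE with a 95% confidence interval of -2.40 to 0.89 (edgeR quasi-likelihood test, Benjamini-Hochberg adjusted p = 0.789). It was -0.26 without DTR 2, -1.37 without DTR 3 and -1.52 with the fibroblast covariate. At these low counts a difference was not detected and its size is uncertain. Fgf10 lies at chr13:118669791-118792115 on the plus strand of GRCm38.

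Set per length, Fgf18 made up 16.5%, 11.96% and 28.1% of the summed level of the 5 ligands in Ctrl and 41.9%, 32.6% and 24.4% in DTR. In DTR 3 its share was below that of Ctrl 3, although its own level was higher, while Fgf2 took 27.9% there against 3.87% to 10.1% in the other libraries. Fgf1 took 36.6%, 60.2% and 44.4% in Ctrl and 25.7%, 41.8% and 23.0% in DTR, and Fgf7 between 20.9% and 36.5% over all libraries. Fgf10 did not exceed 1.20%.

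**Figure D3:**
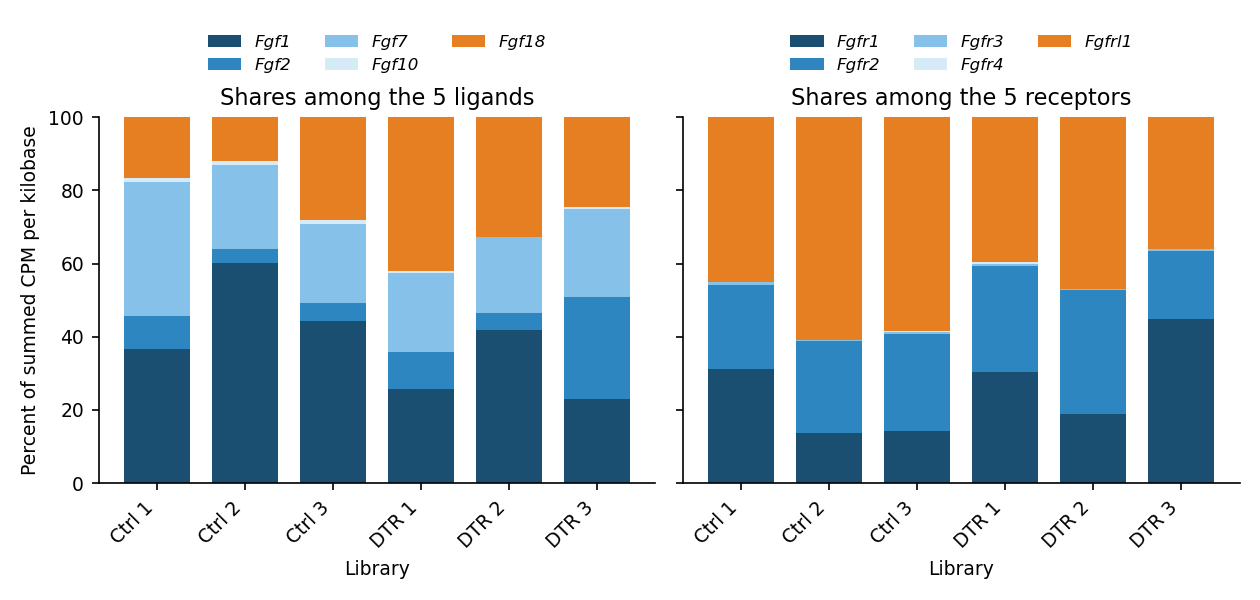
Share of each gene in the summed CPM per kilobase of exon of the 5 ligands (left) and the 5 receptors (right), in percent (y axis), with a bar for each library (x axis). The Fgf18 share runs from 11.96% to 28.1% in Ctrl and from 24.4% to 41.9% in DTR, and the Fgfr1 share is largest in DTR 3, at 44.7%.

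Among the receptors, Fgfr1, the FGF receptor typical of mesenchymal cells, was at 65.2, 26.8 and 31.8 CPM in Ctrl and at 56.7, 41.0 and 107 CPM in DTR. DTR 3 was the highest library and Ctrl 1 the next, and the groups overlapped. The log2 fold change was 0.73 ± 0.42 SE with a 95% confidence interval of -0.24 to 1.70 (edgeR quasi-likelihood test, Benjamini-Hochberg adjusted p = 0.666). It was 0.24 without DTR 3 and 1.22 without Ctrl 1, and 0.28 ± 0.12 SE with the fibroblast covariate. Fgfr1 lies at chr8:25513654-25575718 on the plus strand of GRCm38.

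Fgfr2, whose splice forms serve epithelial and mesenchymal cells, was at 50.2, 52.2 and 62.6 CPM in Ctrl and at 56.7, 76.1 and 46.9 CPM in DTR. The lowest and the highest library were both from DTR. The log2 fold change was 0.12 ± 0.18 SE (95% confidence interval -0.29 to 0.54, edgeR quasi-likelihood test, Benjamini-Hochberg adjusted p = 0.865), and its sign changed without DTR 2 (-0.09) and with an offset for genomic span (-0.31). The annotated span of Fgfr2, chr7:130162451-133123350 on the minus strand of GRCm38, covers 2960900 bases and 36 other genes on the same strand. Of its 50-base words, 2.47% are shared with Ctbp2, which had from 10 to 61 counts in a library. How much of the Fgfr2 count is affected by genes within this span was not measured. The offset, which uses this span, and the exon length of Fgfr2 rest on the same annotation.

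Fgfrl1, the receptor-like protein without a kinase domain, was at 26.4, 33.8 and 37.1 CPM in Ctrl and at 20.9, 28.6 and 24.4 CPM in DTR. DTR 1 and DTR 3 lay below every Ctrl library, and DTR 2 lay above Ctrl 1. The log2 fold change was -0.40 ± 0.17 SE, or 0.759-fold (95% confidence interval -0.78 to -0.01), with an unadjusted p of 0.0447 and an adjusted p of 0.616 by the quasi-likelihood test of edgeR, and a two-sided exact permutation p of 0.2. Over the edgeR fits with a library left out it ran from -0.53 to -0.28, and the unadjusted p stayed under 0.05 only without Ctrl 1 or DTR 2 and was 0.109, 0.168, 0.154 and 0.0835 without Ctrl 2, Ctrl 3, DTR 1 and DTR 3. It was 0.0701 with library size as the only scaling and 0.107 with the fibroblast covariate. With that covariate the log2 fold change was -0.28 ± 0.16 SE. Fgfrl1 lies at chr5:108692382-108706924 on the plus strand of GRCm38, with no other annotated gene overlapping it.

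Fgfr3 and Fgfr4 were close to absent. Fgfr3, a receptor known as a brake on cartilage growth, had 25, 7 and 25 counts in Ctrl and 25, 10 and 16 in DTR, with overlapping groups and a log2 fold change of -0.33 ± 0.62 SE. Over the edgeR fits with a library left out, the Fgfr3 value ran from -0.699 to -0.0157. Fgfr4 had 2, 1 and 3 counts in Ctrl and 10, 0 and 1 in DTR and was not tested. The library with 0 counts, DTR 2, allows a level of up to 0.0966 CPM, the level of 3 counts there. Fgfr3 lies at chr5:33721674-33737068 and Fgfr4 at chr13:55152640-55168759, both on the plus strand of GRCm38. Of the summed receptor level per length, Fgfrl1 took 44.95%, 60.8% and 58.5% in Ctrl and 39.7%, 47.1% and 36.1% in DTR, and Fgfr1 took 31.2%, 13.6% and 14.2% in Ctrl and 30.4%, 19.0% and 44.7% in DTR, while Fgfr3 and Fgfr4 stayed under 1%.

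The levels of Fgfr1 and Fgf2 followed an order of the libraries close to that of the fibroblast markers, a likeness seen after the values were known. The 8 fibroblast markers summed to 13610, 5225 and 5157 CPM in Ctrl and to 10840, 5564 and 14080 CPM in DTR, so that DTR 3, Ctrl 1 and DTR 1 were the high libraries in that order, as they were for Fgfr1. For Fgf2 the highest libraries were the same 3, in the order DTR 3, DTR 1 and Ctrl 1. All 8 fibroblast markers had a fitted difference above 0 (median log2 0.38), with 0 of them past an adjusted or an unadjusted p of 0.05 by edgeR. For Fgf18 the order differed, with Ctrl 1 below Ctrl 3 and DTR 3 the lowest of its group. Its log2 fold change with the fibroblast covariate, which was added after seeing the data, was 1.44 ± 0.33 SE. Fgf1 was lowest in DTR 1 and Ctrl 1. The melanoma markers summed to 17470, 19910 and 19610 CPM in Ctrl and to 17360, 19270 and 16390 CPM in DTR, with DTR 2 the highest DTR library, as it was for Fgf1, Fgfr2 and Fgfrl1. Of the 8 melanoma markers 5 were lower in DTR and 3 higher (median log2 -0.05), with 0 past an adjusted p of 0.05 by edgeR. Only Sox10 had an unadjusted p under 0.05, and it was lower in DTR without overlap (log2 -0.28 ± 0.10 SE). Fgfrl1 ran closest to the melanoma markers, with Ctrl 3 and Ctrl 2 the highest libraries, then DTR 2 and Ctrl 1, and with DTR 3 and DTR 1 the lowest. Beyond the fits with the fibroblast covariate, the part of fibroblast transcript level in the FGF values was not tested, those of Fgf18 included. No fit used the melanoma markers, so the part of melanoma transcript level was not tested for any FGF gene. Mural markers summed to between 14.9 and 38.7 CPM in Ctrl and between 8.998 and 17.0 CPM in DTR, and the 3 tested were all lower in DTR (median log2 -1.02), of which Cspg4 did not overlap between groups. Adipocyte markers summed to between 1.76 and 5.43 CPM in Ctrl and between 1.45 and 1.57 CPM in DTR, the only list whose sums did not overlap. Endothelial markers, at 78.9 CPM in DTR 3 against 11.6 to 27.3 CPM elsewhere, of which Tek made up 62.9 CPM while Cdh5 was at 0, overlapped between groups. The 5 genes that the study names for its S1 stromal cells (Cd34, Dpp4, C3, Il6ra and Il6st) summed to 2677 CPM in DTR 3 and to between 563 and 1177 CPM in the other libraries. All 5 were above 0 (median log2 0.92), with overlapping sums, 0 past an adjusted p of 0.05 and 1, Dpp4, at an unadjusted p under 0.05 by edgeR. C3 alone made up 2114 CPM of the sum in DTR 3. By flow cytometry the study found S1 cells to be less frequent after depletion, a measure of cells and not of transcripts. The part of these lists in the FGF levels was not tested.

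**Figure D4:**
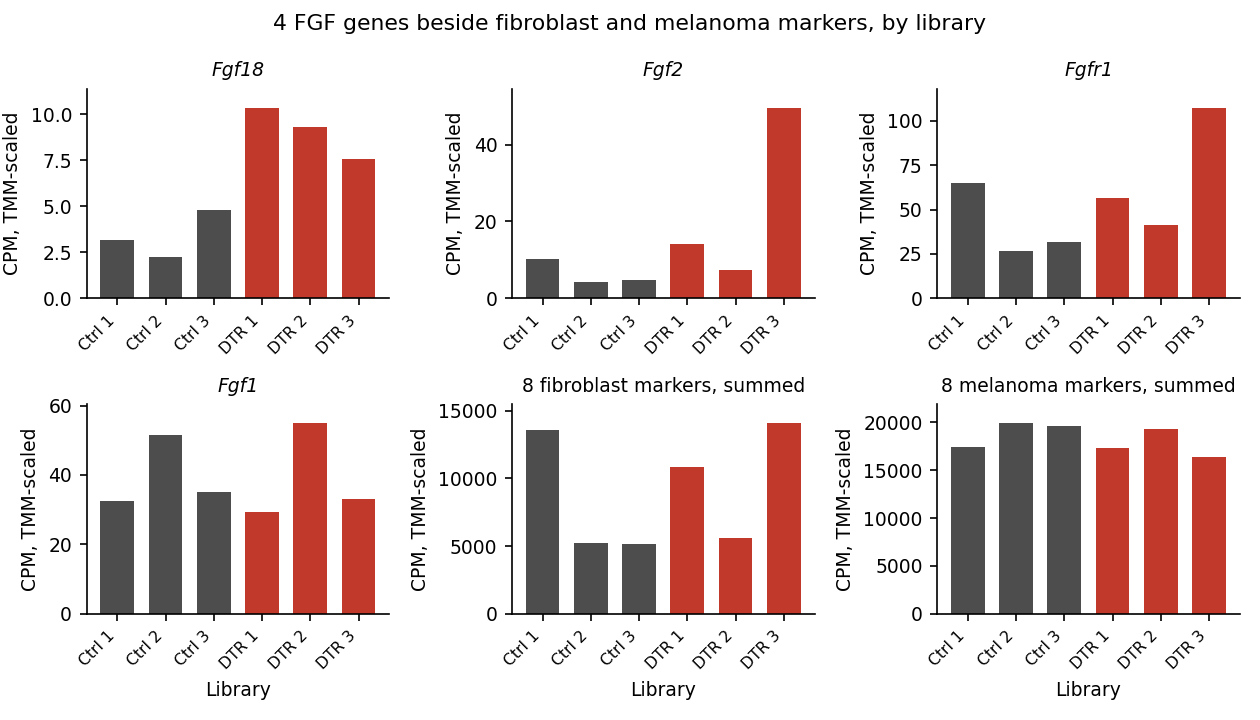
Levels of Fgf18, Fgf2, Fgfr1 and Fgf1 and summed levels of 8 fibroblast and 8 melanoma markers, as TMM-scaled CPM (y axes, each from 0), with a bar for each library (x axes, Ctrl grey and DTR red). Fgf2 (49.5 CPM) and Fgfr1 (107 CPM) are highest in DTR 3, which also has the highest fibroblast sum (14080 CPM), whereas Fgf18 is higher in each DTR library than in each Ctrl library.

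The genes around the ligands and receptors were followed in 4 lists by role, which together hold 60 genes, 59 of them in the table and 40 with enough counts to be tested. None passed an adjusted p of 0.05, whether by the quasi-likelihood test of edgeR or by the Wald test of DESeq2, and 2 of 40, both lower in DTR, had an unadjusted p under 0.05, where 1199 of all genes (7.92%) did so in either direction and 622 of 15133 were lower. The median log2 fold change over the 40 genes was 0.10, and 6 of them had DTR below Ctrl without overlap and 2 above, where 8.18% and 6.32% of all genes did so. The count of 2 was 4 without Ctrl 1, without DTR 1 or without DTR 2.

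**Figure D5:**
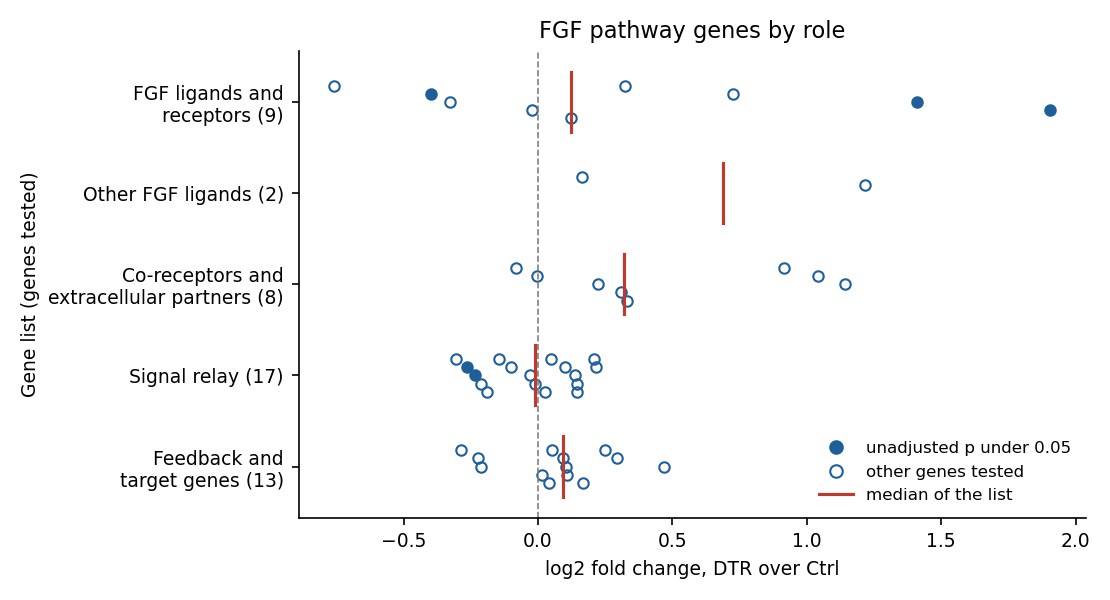
Fitted log2 fold change of DTR over Ctrl (x axis) for the tested genes of each list (y axis, number tested in parentheses). Points are genes, filled where the unadjusted p is under 0.05, and red lines are list medians, which run from -0.01 for the signal relay to 0.69 for the 2 other ligands.

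Of the 17 other FGF ligand genes, 12 had a count in any library and 2 were tested. These were Fgf13, which encodes an FGF homologous factor that is not secreted, at 0.0817, 0.544 and 0.176 CPM in Ctrl and 0.494, 0.419 and 0.970 CPM in DTR (log2 fold change 1.22 ± 0.76 SE), and Fgf11, of the same group, at 0.16 ± 0.91 SE. Fgf8 and Fgf17, the closest relatives of Fgf18 in sequence, had at most 15 and 13 counts in any library and were not tested. Fgf5, Fgf3, Fgf4, Fgf15 and Fgf22 had 0 counts throughout.

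The list of co-receptors and extracellular partners holds 12 genes, of which 8 were tested and 0 passed an adjusted or an unadjusted p of 0.05, with 6 above 0 and 2 below and a median of 0.32. Flrt2, which encodes a membrane protein that binds FGF receptors, was at 53.2, 25.4 and 27.2 CPM in Ctrl and at 67.6, 22.3 and 144 CPM in DTR, the highest fitted difference of the list (log2 1.14 ± 0.59 SE). As for Fgf2 and Fgfr1, DTR 3 was the highest library, and the groups overlapped. Fgfbp3, a carrier that releases FGFs from the matrix, had the lowest, at -0.08 ± 0.57 SE. The median of the list was 0.94 without Ctrl 1. The klotho co-receptor genes Kl and Klb, needed for endocrine FGFs, were not tested for lack of counts.

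All 17 genes of the signal relay, from Frs2 to the MAP kinases, were tested, and they varied little. Their fitted log2 fold changes ran from -0.30 ± 0.15 SE for Hras to 0.22 ± 0.11 SE for Sos1, with a median of -0.01, and 9 were below 0 and 8 above. The MAP kinase kinase genes Map2k1 and Map2k2 had unadjusted p values under 0.05. Map2k1 was at 120, 140 and 115 CPM in Ctrl and at 105, 107 and 107 CPM in DTR. Map2k2 was at 161, 180 and 181 CPM in Ctrl and at 154, 132 and 148 CPM in DTR. Every DTR library lay below every Ctrl library for both genes, by less than the range within Ctrl. The log2 fold changes were -0.24 ± 0.09 SE and -0.27 ± 0.09 SE, with Benjamini-Hochberg adjusted p values of 0.604 and 0.602 by the quasi-likelihood test of edgeR.

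Of the 14 feedback and target genes, which include the Sprouty, Spred, Dusp and Etv genes that FGF signalling is known to induce, 13 were tested and 0 passed an adjusted or an unadjusted p of 0.05. There were 10 above 0 and 3 below, and the median was 0.09 (log2), or 0.02 without DTR 3 and 0.05 without DTR 2. Groups did not overlap in 2 of 13, both with DTR below Ctrl, where 8.18% of all genes did so. These were the feedback inhibitor Spry4, at 25.8, 24.0 and 25.7 CPM in Ctrl and 22.0, 23.8 and 18.8 CPM in DTR, and the phosphatase gene Dusp4, at 189, 187 and 168 CPM in Ctrl and 164, 163 and 143 CPM in DTR, and both were named after their values were seen. The fitted differences ran from -0.29 ± 0.34 SE for Spry1 to 0.47 ± 0.55 SE for Il17rd, which encodes an inhibitor of FGF signalling. Spry1 was at 9.39, 3.52 and 7.84 CPM in Ctrl and at 5.50, 5.99 and 5.51 CPM in DTR, within the Ctrl range. Il17rd was at 5.43, 3.43 and 2.50 CPM in Ctrl and at 2.50, 3.35 and 9.97 CPM in DTR, with DTR 3 again the highest library.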

How the data were processed

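RNA from 6 sorted samples, 3 Ctrl and 3 DTR, was sequenced as stranded total RNA libraries. The authors trimmed reads with cutadapt 3.4, aligned them to GRCm38 with STAR 2.7.3a and counted them per gene with featureCounts 2.0.1, and these deposited raw counts were used here. Beside these counts the deposited table has, for each library, a score, the raw count divided by a DESeq2 size factor (0.829 to 1.28) and rounded, and the authors' own fold changes and p-values, none of which were used. Of the gene rows, 27987 carry no name in the table, and 27841 of these were named from GENCODE M21.

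Genes were kept by filterByExpr (minimum count 10, minimum total 15) and the groups were compared by the quasi-likelihood test of edgeR with TMM factors, default settings, no covariate, two-sided, with Benjamini-Hochberg adjustment at 0.05 (edgeR 4.0.16 under R 4.3.3, with limma 3.58.1 and DESeq2 1.42.0). Dividing a log2 fold change by the root of its F statistic gave its standard error. Exact permutation tests used log2 CPM with 0.1 added. Total counts per library, from 22339635 to 34271929, set the precision. The fit was tested on simulated counts. Levels per kilobase used the merged exons of GENCODE M21, and shared 50-base words were counted between its transcripts. The authors counted on an Ensembl annotation of the same build, so the lengths, spans and shared words, those of the long Fgfr2 model above all, may differ from the gene models behind the counts.

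The genes and lists were chosen with earlier results of these data known. The text names all 10 FGF genes, Adam12 and the sort markers, the lowest and highest tested gene of each list and any with p under 0.05, and the 3 genes nearest to Fgf18. The other genes were named after their values were seen.

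Alternatives were RLE size factors, library size alone, all genes with a count, at least 10 counts in every library, DESeq2's Wald test, limma voom, robust moderation, the replicate number as a block, a loess offset (span 0.5) on genomic span and each replicate left out. Adjusted deviances, the mean log2 level of the 8 fibroblast markers as a covariate and DESeq2 with each replicate left out were added after seeing the data.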

Additional observations from a re-analysis of the deposited data

How the results depend on the processing

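Over 17 alternatives, those with DESeq2 and a replicate left out not included, the Fgf18 log2 fold change kept its sign and an unadjusted p under 0.05, from 1.18 to 1.75, and it passed the adjusted threshold in 1 of them, DESeq2's Wald test, where 1 FGF gene and 31 of all genes passed and 1 of the other pathway genes, 53 of which it fitted, had an unadjusted p under 0.05. With a replicate left out, the quasi-likelihood test called between 0 and 2 of all genes and 0 FGF or other pathway genes, and DESeq2 called between 21 and 201 of all genes and between 0 and 1 FGF genes and other pathway genes each, where Fgf18 had no adjusted p without DTR 1. FGF genes at an unadjusted p under 0.05 then ranged from 1 to 5, and the other pathway genes from 2 to 4. The latter count was 4 with all genes that had any count, with the span offset and with the fibroblast covariate. Fgf1 changed sign with library size alone (0.0133), with the fibroblast covariate (0.18) and among the fits with a replicate left out (-0.35 to 0.22). Fgfr2 did so with the span offset (-0.31) and among the fits with a replicate left out (-0.0871 to 0.273). The median of the signal relay was 0.0172 with library size alone, -0.0759 with the span offset and -0.0263 with the covariate, where the median of all genes was 0.0261, -0.0727 and 0.0037, and it ran from -0.0610 to 0.0416 with a replicate left out. For the co-receptors that range was 0.20 to 0.94 by the quasi-likelihood test and 0.17 to 1.17 by DESeq2, and for the other ligands 0.0640 to 0.988 and 0.343 to 1.33. DESeq2 fits all genes with any count, so these lists hold more genes there than in the quasi-likelihood test. The median of the FGF genes was -0.15 with the span offset and -0.03 without DTR 2, and it was above 0 in the other fits. Fgf1 with library size alone moved about as far as the median of all genes. The cause of these changes was not tested.

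It was not established that the replicate numbers pair the libraries. Deviations from the group means correlated at 0.107, 0.129 and -0.03 between libraries of the same number, and libraries correlated best with their own number for 2 of the 3 numbers. With the replicate number as a block, 0 genes passed the adjusted threshold, 3 FGF genes and 6 other pathway genes had an unadjusted p under 0.05, and the Fgf18 log2 fold change was 1.46 ± 0.33 SE. The earlier quasi-likelihood method was not run as an alternative, because it is the default of the edgeR version used. With at least 10 counts in every library, Fgf10, Fgfr3 and the other ligands could not be fitted. The order of levels per kilobase was the same with CPM by library size alone. Depth limits Fgf10, Fgfr3 and Fgfr4, whose counts were at most 25 in any library.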
